A study of Arabidopsis thaliana with 9 samples.

Results

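The WRKY genes encode a plant family of transcription factors, proteins that bind DNA near genes and set how strongly those genes are transcribed. The 44 WRKY genes described here were taken from a list of gene identifiers, and no measured value entered the choice. They are 44 of the 37898 genes in the deposited expression table and of the 72 genes that the reference annotation names as WRKY genes. Of the 44, 38 reached 1 FPKM in at least 3 of the 9 libraries and were tested among 18212 such genes. FPKM is the number of fragments scaled to transcript length and to the number of mapped fragments of the library.

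The study measured polyadenylated RNA in 2-week-old Arabidopsis thaliana seedlings of the Col-0 ecotype under a mock treatment in long days, with 3 libraries from wild type, 3 from nrpd1-3 and 3 from nrpe1-11. NRPD1 and NRPE1 are the largest subunits of Pol IV and Pol V, plant-specific RNA polymerases of RNA-directed DNA methylation. The comparisons ask whether losing either polymerase alters gene expression, and whether the Pol V mutant differs from the Pol IV mutant. Each mutant is represented by 1 allele, all 9 libraries share the mock treatment, and the labels do not say whether replicates came from separate plants or cultures. The p-values below therefore measure only the spread between these libraries, which may be technical.

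The targeted genes were low in all libraries and gave only a partial check of the labels. NRPE1 was at 0.831, 0.843 and 0.863 FPKM in Col-0 and at 0.624, 0.254 and 0.339 FPKM in the libraries labelled nrpe1-11, every one of which was below Col-0, although the log2 fold change of -0.40 was not called (adjusted p = 0.196, limma with Benjamini-Hochberg adjustment). Against nrpd1-3, at 1.4, 1.28 and 1.19 FPKM, NRPE1 was called lower in nrpe1-11 (-0.71, adjusted p = 0.0365). NRPE1 reached 1 FPKM only in the nrpd1-3 libraries and entered the test through them, so this call does not check the labels. NRPD1 was at 0.565, 0.489 and 1.05 FPKM in Col-0 and at 0.674, 0.67 and 0.947 FPKM in the libraries labelled nrpd1-3, and these ranges overlapped (log2 fold change 0.06, adjusted p = 0.948). In nrpe1-11, NRPD1 was at 1.56, 1.98 and 2.3 FPKM, higher than in Col-0 (0.80, adjusted p = 0.019) and in nrpd1-3 (0.74, adjusted p = 0.0361). NRPD1 reached 1 FPKM only in these nrpe1-11 libraries and in Col-0 replicate 3, so it passed the filter through nrpe1-11. The level of NRPD1 therefore does not check the label nrpd1-3, and which part of either gene the alleles alter is not given in the sources used here.

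Depth was similar across libraries, at an estimated 1.01 to 1.25 gigabases of sequence aligned to genes. Ribosomal RNA took 14.2% to 21.4% of the FPKM sum, with the highest share in Col-0 replicate 2. Leaf markers (6) and root markers (8, of which 7 were tested) were both present, so the libraries hold RNA of both organs. In such bulk samples, fewer cells of a type and less RNA per cell cannot be told apart.

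WRKY proteins share a DNA-binding domain built around a conserved stretch that begins with tryptophan, arginine, lysine and tyrosine, followed by a zinc finger, and most of them bind the W-box, a short DNA element with the core TTGAC. The family is divided by the number of domains and the type of zinc finger: group I has a pair of domains, group II has 1 domain and a C2H2 finger and is split into subgroups IIa to IIe, and group III has 1 domain and a C2HC finger. Many members are transcribed quickly after wounding, pathogen contact or salicylic acid, are phosphorylated by MAP kinases, and act on one another's promoters, some as activators and some as repressors.

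The assigned groups were checked against the coding sequences in the RefSeq TAIR10.1 annotation. The number of WRKY motifs and the finger type gave the assigned group I, II or III for 44 of 44 genes, with 2 motifs in 10 genes and 1 motif in 34. The division of group II into IIa to IIe was not checked from sequence. Proteins ran from 145 residues in WRKY75 to 687 in WRKY2. The coding DNA of the conserved stretch, from its tryptophan codon to the lysine codon at its end, is shown for called members of groups I, IIa, IIb and III and for the pair that departs from the consensus, with the sixth codon in capitals. Positions are on TAIR10.1, and the letters follow the coding strand. In WRKY33, the sequence is that of the C-terminal domain.
WRKY33, chr2:16109982-16110002, plus strand: tggagaaaatacggcCAGaaa
WRKY40, chr1:30384789-30384809, plus strand: tggaggaaatatggaCAGaaa
WRKY53, chr4:12393134-12393154, minus strand: tggagaaaatatggtCAAaaa
WRKY30, chr5:8154180-8154200, minus strand: tggagaaagtacggcCAGaag
WRKY6, chr1:23017701-23017721, minus strand: tggagaaaatatggcCAGaag
WRKY50, chr5:9147579-9147599, minus strand: tggagaaagtatgggAAGaag
WRKY51, chr5:25908864-25908884, plus strand: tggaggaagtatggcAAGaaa
The sixth codon was CAA in 25 members and CAG in 17, both of which encode glutamine, and AAG, a lysine codon, in 2 members, WRKY50 and WRKY51.

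The 250 bases upstream of the annotated start of each gene were searched on both strands for TTGACC and TTGACT, the 2 forms of the W-box, which differ in their last base and share no start position. At least 1 match was present upstream of 17 of the 44 genes (38.6%), against 28.4% of 27443 protein-coding genes, and at least 2 were present upstream of 10 (22.7%, against 6.18%). The mean GC content of the windows was 31% for WRKY genes and 31.5% for all protein-coding genes. The windows of 3 genes that carry matches and of WRKY40, which carries none, are shown because these 4 genes lie among those with the largest differences below. Capitals mark the matches, written as GGTCAA or AGTCAA where the element lies on the other strand.
WRKY33, chr2:16107985-16108234, plus strand: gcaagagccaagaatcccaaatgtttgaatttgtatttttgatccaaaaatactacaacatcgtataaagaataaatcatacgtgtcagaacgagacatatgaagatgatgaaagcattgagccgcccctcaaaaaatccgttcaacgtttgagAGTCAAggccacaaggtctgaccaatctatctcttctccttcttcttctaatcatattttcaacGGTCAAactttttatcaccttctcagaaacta
WRKY53, chr4:12393983-12394232, minus strand: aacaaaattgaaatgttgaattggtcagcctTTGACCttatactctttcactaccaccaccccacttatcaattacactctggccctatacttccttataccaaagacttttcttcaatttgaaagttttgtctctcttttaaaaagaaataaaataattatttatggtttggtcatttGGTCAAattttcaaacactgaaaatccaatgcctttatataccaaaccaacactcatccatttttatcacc
WRKY30, chr5:8154711-8154960, minus strand: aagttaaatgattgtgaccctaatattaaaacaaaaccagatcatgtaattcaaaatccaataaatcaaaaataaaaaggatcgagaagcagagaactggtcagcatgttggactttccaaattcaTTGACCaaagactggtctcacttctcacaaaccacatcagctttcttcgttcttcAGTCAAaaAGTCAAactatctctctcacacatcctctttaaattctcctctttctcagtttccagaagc
WRKY40, chr1:30383311-30383560, plus strand: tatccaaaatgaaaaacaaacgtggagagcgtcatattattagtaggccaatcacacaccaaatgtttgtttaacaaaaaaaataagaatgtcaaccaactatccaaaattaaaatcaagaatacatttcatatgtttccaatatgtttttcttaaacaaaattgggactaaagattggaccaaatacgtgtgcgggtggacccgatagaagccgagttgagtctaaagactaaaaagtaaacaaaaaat
The window of WRKY33 held 2 matches, that of WRKY53 held 2, and that of WRKY30 held 3. A match is a description of the letters, and its absence says only that these letters are not in this window. The window of WRKY40 does hold the core TTGAC on the other strand, followed by A.

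In wild-type seedlings the WRKY genes spanned a wide range of levels. Mean FPKM over the 38 tested members had a median of 9.73 in Col-0, and 19 members were at 10 FPKM or more. WRKY15, a group IId member linked to growth under salt and oxidative stress, had the highest mean at 46.7 ± 2.79 FPKM (SD, n = 3). WRKY33, a group I activator of camalexin synthesis and of resistance to necrotrophic fungi, followed at 43.5 ± 7 FPKM, and these neighbours did not differ beyond their spread. Every Col-0 library of WRKY33 stood above every library of the next gene, WRKY26, which was at 20.9 ± 2.81 FPKM. WRKY70, a group III regulator of the balance between salicylic acid and jasmonate, was at 19.7 ± 2.16 FPKM, and WRKY40, a group IIa regulator of basal defence and abscisic acid responses, was at 18.4 ± 2.6 FPKM. From WRKY26 down to WRKY40, neighbours in the order overlapped.

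The order was different in nrpe1-11. WRKY15 was again the highest, at 40.4 ± 1.6 FPKM, followed by WRKY26 at 29.7 ± 4.41, WRKY65 at 20.5 ± 1.56, WRKY39 at 19.2 ± 2.49 and WRKY4 at 17.9 ± 1.67 FPKM. Ranked by mean level, WRKY33 was second in Col-0 and at place 13 in nrpe1-11, and WRKY40 was at place 5 in Col-0 and at place 29 in nrpe1-11. In nrpd1-3, WRKY33 was first with a mean of 51.2 ± 4.63 FPKM. The median of the member means was 10.9 FPKM in nrpd1-3 and 6.91 FPKM in nrpe1-11, with 20 and 14 members at 10 FPKM or more.

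In nrpe1-11 against Col-0, 13 of the 38 tested WRKY genes fell, 6 rose and 19 were not called. The 13 that fell make 34.2% of the tested members, where 7.54% of all tested genes were called lower. The 6 that rose make 15.8%, close to the 14.2% of all tested genes that were called higher. Calls used limma on log2(FPKM + 1) with an adjusted p under 0.05 over all 18212 genes, and fold changes on this scale understate the change of genes with low FPKM. The median log2 fold change of the members was -0.14, beside a median of 0.17 over all tested genes. Of the tested members, 3 (WRKY8, WRKY30 and WRKY50) were under 1 FPKM in every nrpe1-11 library and entered the test through the other genotypes, whereas 0 members were under 1 FPKM in every Col-0 library. WRKY8 and WRKY30 are among the 13 that fell, so that count depends in part on the filter. The share of 34.2% also holds for the listed genes only, since 0 of 12 other tested WRKY-named genes were called lower.

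**Figure D1:**
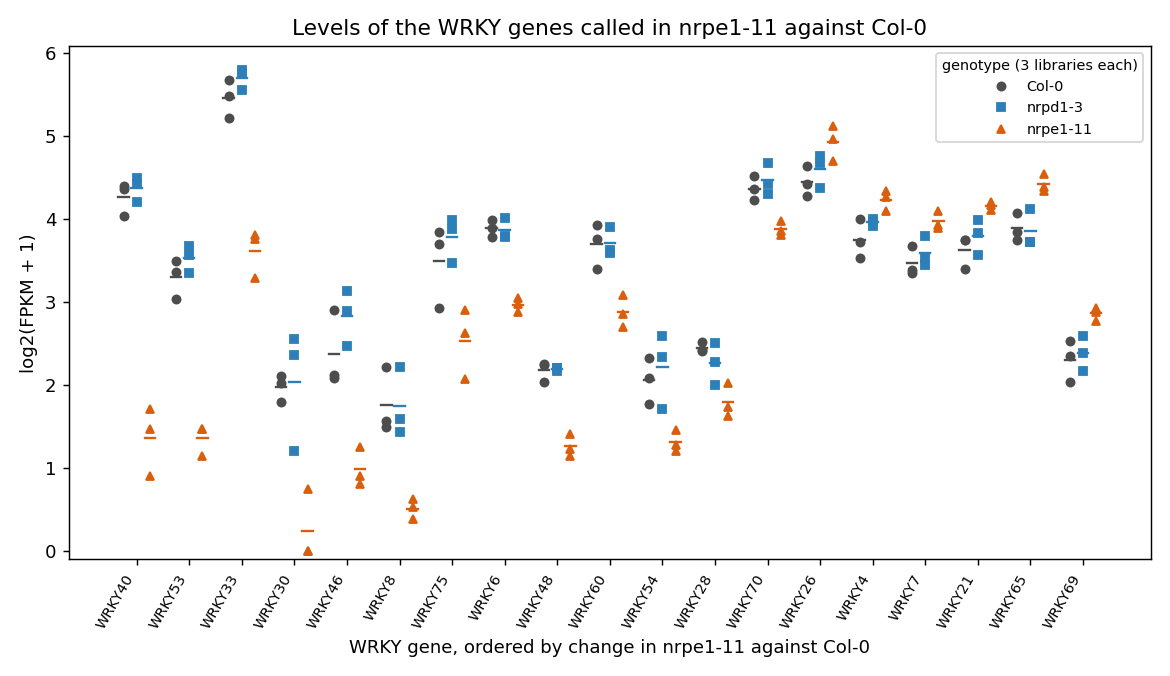
Log2(FPKM + 1) of the 19 WRKY genes called in nrpe1-11 against Col-0, ordered by their change; each point is 1 library, coloured by genotype, and lines mark the mean of 3. The nrpe1-11 points lie below every Col-0 point in the 13 genes that fell and above in the 6 that rose, with the widest gap in WRKY40.

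By group among the listed genes, all 5 tested group III members fell, as did 2 of 3 in group IIa. So did 1 of 2 in group IIb, 4 of 8 in group IIc and 1 of 10 in group I. None of the 6 tested members of group IId or of the 4 of group IIe fell. The members that rose were 2 of group I, 2 of group IId and 2 of group IIe. With so few genes in each group, differences between groups were not tested. The FPKM of group III summed over its 9 members was between 36 and 44.5 in the Col-0 libraries, between 43.8 and 52.2 in nrpd1-3 and between 17.8 and 20.6 in nrpe1-11. For group IIa the sums were 35.1 to 44.6, 42.5 to 45.3 and 15 to 18.2 in the same order. Group IIb was at 23.1 to 24.6, 20.7 to 24.9 and 15.2 to 17.2, and group IIc at 36 to 42.5, 34.7 to 49.1 and 25.3 to 28.2, so that nrpe1-11 was lowest without overlap in these 4 groups. Group IIe went the other way, at 24.9 to 30.1 in Col-0, 27.3 to 32.1 in nrpd1-3 and 34 to 39 in nrpe1-11. The sums of group IId overlapped in all 3 genotypes, at 96.9 to 109, 92.7 to 123 and 104 to 114. Those of group I were 122 to 155, 141 to 160 and 109 to 126, so nrpe1-11 overlapped Col-0. Such sums follow single abundant genes. In group IIb, WRKY6 had means of 13.8 FPKM in Col-0 and 6.84 in nrpe1-11, and WRKY47 of 9.09 and 8.75. Single genes often did not overlap either (10.7% of all tested genes below Col-0 and 28.7% above), and no such share was computed for sums.

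**Figure D2:**
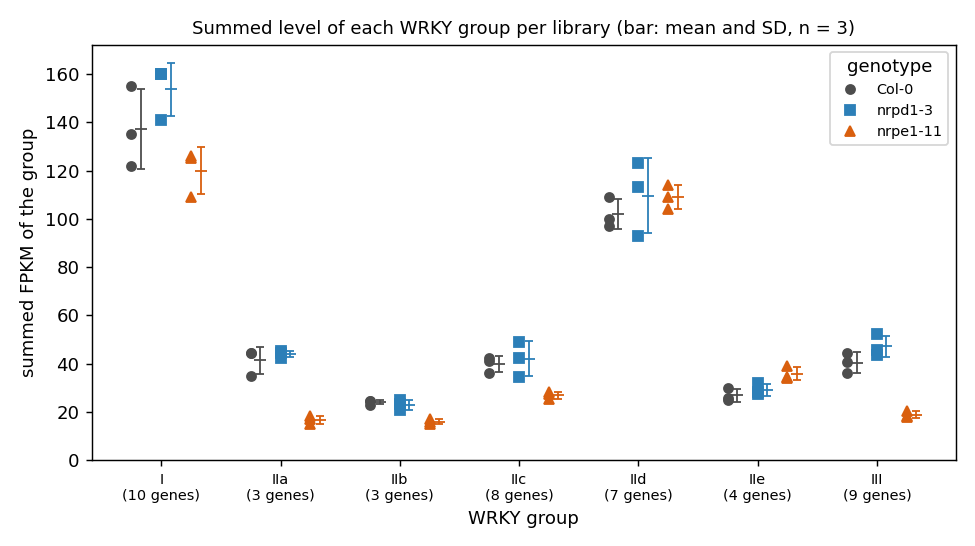
Summed FPKM of each WRKY group per library, by genotype; points are single libraries and bars mark the mean and SD of 3. Within groups IIa, IIb, IIc and III the nrpe1-11 points lie below those of the other genotypes, and within group IIe they lie above.

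Group IIa holds WRKY40, whose log2 fold change was the lowest of the family at a pseudocount of 1. With a pseudocount of 0.1 that of WRKY30 in group III, which has values at 0, was lower (-3.94 against -3.49 for WRKY40). WRKY40 (AT1G80840) was at 20.1, 15.4 and 19.6 FPKM in Col-0, at 21.6, 17.4 and 20.5 FPKM in nrpd1-3, and at 0.877, 1.77 and 2.27 FPKM in nrpe1-11. All 3 nrpe1-11 libraries lay far below the other 6, which overlapped. Mean FPKM was 11.2-fold lower in nrpe1-11 than in Col-0, and the log2 fold change was -2.90 (SE 0.187, adjusted p = 3.77e-08). WRKY60 (AT2G25000), which forms complexes with WRKY40 and WRKY18 (AT4G31800), was at 14.2, 9.58 and 12.6 FPKM in Col-0, at 11.4, 11.1 and 14 FPKM in nrpd1-3, and at 7.51, 5.48 and 6.23 FPKM in nrpe1-11. Its nrpe1-11 libraries were all lower without overlap, and it fell by 0.82 on the log2 scale (SE 0.162, adjusted p = 0.00224). WRKY18, the remaining group IIa member, was at 10.3, 10.1 and 12.4 FPKM in Col-0 and at 8.96, 7.76 and 9.7 FPKM in nrpe1-11. The ranges of WRKY18 did not overlap, but its log2 fold change of -0.28 (95% interval -0.60 to 0.03) was not called (adjusted p = 0.187).

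Group III contains salicylic acid and senescence regulators. WRKY53 (AT4G23810), an activator of leaf senescence, was at 9.33, 7.22 and 10.3 FPKM in Col-0, at 11.8, 10.9 and 9.2 FPKM in nrpd1-3, and at 1.77, 1.77 and 1.22 FPKM in nrpe1-11. The nrpe1-11 values were low in every library, and the log2 fold change was -1.94 (SE 0.17, adjusted p = 1.11e-06). WRKY46 (AT2G46400), which acts with WRKY54 and WRKY70 in salicylic acid and brassinosteroid responses, was at 6.49, 3.26 and 3.37 FPKM in Col-0, at 7.8, 4.54 and 6.41 FPKM in nrpd1-3, and at 0.75, 0.873 and 1.39 FPKM in nrpe1-11. Col-0 replicate 1 was about as high as nrpd1-3, and nrpe1-11 was lower without overlap (log2 fold change -1.38, SE 0.243, adjusted p = 0.000932). WRKY30 (AT5G24110), a stress-induced member, was at 2.47, 3.32 and 3.08 FPKM in Col-0 and at 4.15, 1.31 and 4.89 FPKM in nrpd1-3, and it was listed at 0 in nrpe1-11 replicates 1 and 2 and at 0.675 FPKM in replicate 3. No fold of mean FPKM is given for WRKY30 because of these values at 0. Its log2 fold change at a pseudocount of 1 was -1.73 (SE 0.316, adjusted p = 0.00125). From the depth estimate, WRKY30 in Col-0 rested on 3922 to 4849 aligned bases per library, and the single nrpe1-11 value above 0 on 1054.

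WRKY70 and WRKY54 (AT2G40750), a pair of partly redundant repressors of senescence, fell less. WRKY70 (AT3G56400) was at 22, 17.7 and 19.5 FPKM in Col-0, at 24.6, 20.4 and 18.7 FPKM in nrpd1-3, and at 13.5, 13 and 14.8 FPKM in nrpe1-11. WRKY54 was at 3.24, 2.41 and 4.03 FPKM in Col-0, at 2.27, 5.04 and 4.06 FPKM in nrpd1-3, and at 1.42, 1.31 and 1.74 FPKM in nrpe1-11. For both genes, nrpe1-11 was below the other genotypes in every library. The log2 fold change against Col-0 was -0.49 for WRKY70 (SE 0.127, adjusted p = 0.0136). For WRKY54 it was -0.75 (SE 0.233, adjusted p = 0.033). The call of WRKY70 was lost without Col-0 replicate 1 (-0.41, adjusted p = 0.0568) and without nrpe1-11 replicate 2 (-0.45, adjusted p = 0.0529). That of WRKY54 was lost on leaving out Col-0 replicate 1 (-0.74) or 3 (-0.61) or any 1 of the nrpe1-11 replicates (-0.73, -0.70 and -0.82), with adjusted p from 0.0529 to 0.116, and with no filter on low values (adjusted p = 0.0966).

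WRKY33 (AT2G38470) was the single group I member that fell. Its values were 50.2, 36.2 and 43.9 FPKM in Col-0, 53.1, 46 and 54.6 FPKM in nrpd1-3, and 8.79, 13 and 12.5 FPKM in nrpe1-11. Every nrpe1-11 library was far below the lowest of the other 6. Mean FPKM was 3.81-fold lower than in Col-0, and WRKY33 fell by 1.85 on the log2 scale (SE 0.147, adjusted p = 3.92e-07). WRKY25 and WRKY26 act with WRKY33 in heat tolerance. WRKY25 (AT2G30250) was at 17.8, 14.9 and 16.7 FPKM in Col-0 and at 15.3, 14.1 and 14 FPKM in nrpe1-11, which overlapped (log2 fold change -0.17, 95% interval -0.45 to 0.10, adjusted p = 0.356). WRKY26 (AT5G07100) was at 23.9, 18.4 and 20.4 FPKM in Col-0, at 24.6, 19.8 and 26.1 FPKM in nrpd1-3, and at 25.1, 33.8 and 30.3 FPKM in nrpe1-11, above every Col-0 library. WRKY26 rose by 0.49 on the log2 scale (SE 0.139, adjusted p = 0.0225), a call that was lost without Col-0 replicate 2 (0.40) or 3 (0.47) and without nrpe1-11 replicate 2 (0.39) or 3 (0.47). It was also lost with no filter on low values (adjusted p = 0.0748) and under quantile normalization (0.35, adjusted p = 0.0529). WRKY4 (AT1G13960), which contributes to resistance against necrotrophs, was at 15, 10.6 and 12.2 FPKM in Col-0, at 14.8, 14.1 and 15 FPKM in nrpd1-3, and at 16.1, 18.3 and 19.3 FPKM in nrpe1-11. Its nrpe1-11 libraries were the highest of the 9, and it rose by 0.49 (SE 0.133, adjusted p = 0.0173). WRKY4 no longer passed when Col-0 replicate 2 (0.38) or nrpe1-11 replicate 2 (0.47) or 3 (0.43) was left out. The other 6 group I members, WRKY1, WRKY2, WRKY3, WRKY20, WRKY32 and WRKY44, were not called, and their log2 fold changes ran from -0.02 in WRKY1 to 0.21 in WRKY44.

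Group IIb and IIc members that fell include genes of senescence and phosphate supply. WRKY6 (AT1G62300), which controls senescence and represses the phosphate exporter PHO1, was at 12.8, 13.8 and 14.9 FPKM in Col-0, at 12.9, 15.1 and 12.8 FPKM in nrpd1-3, and at 6.86, 7.28 and 6.37 FPKM in nrpe1-11. Its replicates were tight and nrpe1-11 stood apart, and WRKY6 fell by 0.92 (SE 0.126, adjusted p = 9.94e-05). WRKY75 (AT5G13080), a phosphate starvation and senescence regulator, was at 12, 6.59 and 13.4 FPKM in Col-0, at 13.7, 10.1 and 14.9 FPKM in nrpd1-3, and at 3.2, 6.52 and 5.18 FPKM in nrpe1-11. The lowest Col-0 library and the highest nrpe1-11 library of WRKY75 almost met. It fell by 0.95 (SE 0.244, adjusted p = 0.0121), a call that was lost without Col-0 replicate 3 (-0.78, adjusted p = 0.0552) or nrpe1-11 replicate 1 (-0.72, adjusted p = 0.0607), and with no filter on low values (adjusted p = 0.0816). WRKY45 (AT3G01970), its close relative, was not called, with a log2 fold change of 0.06 (95% interval -0.22 to 0.34).

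WRKY8 (AT5G46350), WRKY28 and WRKY48 are targets of calcium-dependent protein kinases in immune signalling. WRKY48 (AT5G49520), a repressor of basal resistance to bacteria, was at 3.74, 3.76 and 3.11 FPKM in Col-0, at 3.52, 3.62 and 3.6 FPKM in nrpd1-3, and at 1.35, 1.22 and 1.65 FPKM in nrpe1-11. It was low in every nrpe1-11 library and fell by 0.92 (SE 0.173, adjusted p = 0.00157). WRKY8 was at 1.82, 3.67 and 1.96 FPKM in Col-0, at 2.02, 1.71 and 3.64 FPKM in nrpd1-3, and at 0.305, 0.54 and 0.444 FPKM in nrpe1-11. WRKY8 was under 1 FPKM in every nrpe1-11 library, and its log2 fold change was -1.25 (SE 0.255, adjusted p = 0.00286). WRKY28 (AT4G18170), an activator of the salicylic acid synthesis gene ICS1, was at 4.75, 4.38 and 4.3 FPKM in Col-0, at 3.85, 3.01 and 4.69 FPKM in nrpd1-3, and at 3.07, 2.1 and 2.33 FPKM in nrpe1-11. The nrpe1-11 values of WRKY28 were below Col-0 but reached into the nrpd1-3 range. It fell by 0.66 against Col-0 (SE 0.183, adjusted p = 0.0196), but did not pass when Col-0 replicate 1 (-0.62) or nrpe1-11 replicate 2 (-0.57) or 3 (-0.62) was left out.

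The pair with the lysine codon, WRKY50 (AT5G26170) and WRKY51 (AT5G64810), represses jasmonate signalling when salicylic acid is high. WRKY51 was at 3.25, 1.48 and 3.91 FPKM in Col-0, at 3.32, 0.744 and 4.53 FPKM in nrpd1-3, and at 2.39, 0.617 and 0.975 FPKM in nrpe1-11. Replicate 2 was the lowest library in each genotype and the ranges overlapped, so that a log2 fold change of -0.75 with an interval of -1.58 to 0.08 was not called (adjusted p = 0.181). WRKY50 was low everywhere, from 0.184 to 1.37 FPKM, with a log2 fold change of -0.25 (95% interval -0.83 to 0.32).

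Of the group IId members, whose proteins bind calmodulin, WRKY7 and WRKY21 rose. WRKY7 (AT4G24240) was at 9.47, 9.19 and 11.8 FPKM in Col-0, at 12.9, 9.9 and 10.6 FPKM in nrpd1-3, and at 16.1, 14.3 and 13.8 FPKM in nrpe1-11. WRKY21 (AT2G30590) was at 12.4, 9.56 and 12.4 FPKM in Col-0, at 13.3, 10.9 and 14.9 FPKM in nrpd1-3, and at 16.3, 17 and 17.5 FPKM in nrpe1-11. For both, every nrpe1-11 library was above every other library. The log2 fold change of WRKY7 was 0.50 (SE 0.139, adjusted p = 0.0191), and it no longer passed when Col-0 replicate 1 (0.46) or 2 (0.44) or nrpe1-11 replicate 1 (0.44) was left out. That of WRKY21 was 0.53 (SE 0.139, adjusted p = 0.0131). WRKY11 (AT4G31550) and WRKY17 (AT2G24570) are related repressors of basal resistance. WRKY11 had a log2 fold change of -0.28 (95% interval -0.58 to 0.01, adjusted p = 0.159), and WRKY17 one of 0.56 (95% interval 0.12 to 1.00, adjusted p = 0.065), so that neither was called. Without Col-0 replicate 2, WRKY17 had a log2 fold change of 0.71 with an adjusted p of 0.0358. WRKY15 (AT2G23320) was at 44.2, 46.2 and 49.7 FPKM in Col-0 and at 40.2, 38.8 and 42 FPKM in nrpe1-11, lower in each library but not called (log2 fold change -0.20, adjusted p = 0.23). WRKY39 was not called (0.23, adjusted p = 0.253).

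In group IIe, WRKY65 and WRKY69 rose. WRKY65 (AT1G29280) was at 12.4, 13.4 and 15.9 FPKM in Col-0, at 16.4, 12.2 and 12.2 FPKM in nrpd1-3, and at 20, 19.3 and 22.3 FPKM in nrpe1-11. WRKY69 (AT3G58710) was at 4.11, 3.11 and 4.76 FPKM in Col-0, at 4.24, 3.52 and 5.03 FPKM in nrpd1-3, and at 5.86, 6.65 and 6.36 FPKM in nrpe1-11. Both were highest in the nrpe1-11 libraries without overlap. The log2 fold change was 0.54 for WRKY65 (SE 0.138, adjusted p = 0.0126), and its call was lost without nrpe1-11 replicate 3 (0.48). For WRKY69 it was 0.56 (SE 0.174, adjusted p = 0.0326), and this call did not survive leaving out Col-0 replicate 1 (0.58) or 2 (0.42), nor any 1 of the nrpe1-11 replicates (0.60, 0.52 and 0.55), nor dropping the filter on low values (adjusted p = 0.0621). WRKY22 and WRKY29, which lie downstream of the MAP kinases activated by bacterial flagellin, were not called, with log2 fold changes of 0.03 (95% interval -0.26 to 0.33) and -0.11 (95% interval -0.61 to 0.39).

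The rises were small against the shift of all genes, whose median was 0.17. Relative to that median, the 6 members that rose were between 0.31 and 0.38 higher on the log2 scale. When libraries were rescaled by median ratios, 1 of the 6, WRKY21, was still called higher, and 16 were called lower, with WRKY11 (-0.46), WRKY15 (-0.39) and WRKY25 (-0.35) added. The falls of WRKY40, WRKY53 and WRKY33 relative to the median were -3.08, -2.11 and -2.02. Of the 19 called members, 10 had the same call under every alternative that gave a value other than the 2-fold minimum: WRKY6, WRKY8, WRKY21, WRKY30, WRKY33, WRKY40, WRKY46, WRKY48, WRKY53 and WRKY60. With the 2-fold minimum, 6 of these 10 (WRKY8, WRKY30, WRKY33, WRKY40, WRKY46 and WRKY53) were still called, all lower, against 2.93% of all tested genes. An unadjusted p under 0.05 was reached by 20 members, against 35.2% of all tested genes. All nrpe1-11 libraries were below all Col-0 libraries for 16 members, where 10.7% of all tested genes were, and above them for 7 members, where 28.7% were.

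**Figure D3:**
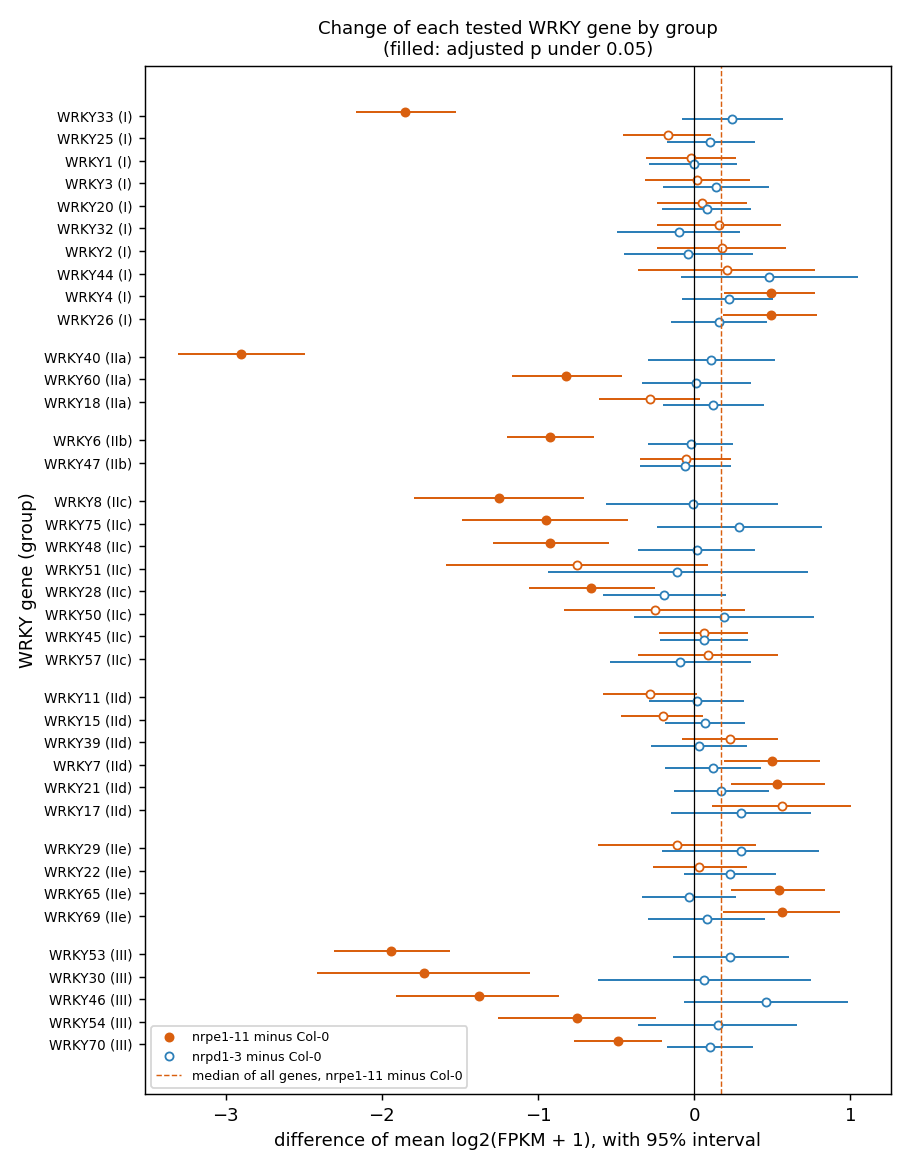
Log2 fold change on the log2(FPKM + 1) scale of each tested WRKY member, with 95% intervals from limma, for nrpe1-11 and nrpd1-3 each against the same Col-0 libraries; filled points are called at an adjusted p under 0.05, and the dashed line is the median of all genes in nrpe1-11. In nrpe1-11 the values run from -2.90 for WRKY40 to 0.56 for WRKY69, and in nrpd1-3 from -0.19 for WRKY28 to 0.48 for WRKY44, with no called point.

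Other gene lists moved between the same libraries. These lists were assembled with earlier results of these data known. The counts below stand beside 7.54% of all tested genes called lower in nrpe1-11 than in Col-0 and 14.2% called higher. Of 12 genes induced by touch or wounding, which WRKY genes such as WRKY33, WRKY40 and WRKY53 also are, 10 were lower in nrpe1-11 than in Col-0 and 0 higher. Their summed level was 418 to 505 FPKM in Col-0, 505 to 537 in nrpd1-3 and 237 to 247 in nrpe1-11. Of 6 morning clock genes, 5 were lower, with sums of 70.4 to 87.4, 86.2 to 98.9 and 55.3 to 56.2 FPKM. Of 7 evening clock genes, 5 were higher and 2 lower, with sums of 531 to 563, 555 to 619 and 1024 to 1084 FPKM. These sums follow the most abundant genes. CCR2 had means of 438 FPKM in Col-0 and 889 in nrpe1-11, PRR7 of 34.7 and 19.1, and RVE4, not called, of 28.3 and 34.1. Mean FPKM of the morning genes LHY, RVE8, PRR9 and CCA1 was 4.21-fold to 11-fold lower in nrpe1-11, where their means were under 1 FPKM. All 6 leaf markers were lower, with sums of 5502 to 6145, 5663 to 5903 and 3516 to 3957 FPKM. Of 7 tested root markers, 1 was lower and 2 higher, with sums over all 8 of 39.1 to 46.2, 42.6 to 48.7 and 43.7 to 54 FPKM. None of these genes was at 0 in all 9 libraries. Neither the time of harvest nor the handling of seedlings is in the labels, and the part of time of day, handling or tissue make-up in the WRKY differences was not tested.

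Among the WRKY genes, 9 share exon bases with a locus on the opposite strand, and whether the authors' quantification used strand is not given in the sources used here. WRKY40 shares 51 bases (3.85% of its exons) with AT1G80850, which had a log2 fold change of 0.47 (adjusted p = 0.174). WRKY53 shares 311 bases (20.5%) with 3xHMG-box2, which had a log2 fold change of 0.38 (adjusted p = 0.0949). Both neighbours were thus not called, with positive estimates where the WRKY gene fell. WRKY69, which rose, shares 255 bases (20.4%) with AT3G58720, at a log2 fold change of 0.08 (adjusted p = 0.798). WRKY1, which was not called, shares 166 bases (7.97%) with SCL21, which was called higher (0.67, adjusted p = 0.0109). Levels of the genes with the longest shared stretches, WRKY41 with 491 bases (41.7%), WRKY53, WRKY69 and WRKY29 with 251 bases (18%), are uncertain to that extent.

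Between the libraries labelled nrpd1-3 and Col-0, 0 of the 38 tested members were called by limma, where 0% of all tested genes were called, and 0 members had an unadjusted p under 0.05, where 7.05% of all genes did. The median log2 fold change was 0.09 over the members and 0.11 over all tested genes. Values ran from -0.19 for WRKY28 to 0.48 for WRKY44, a regulator of trichome and seed coat development (95% interval -0.08 to 1.04, adjusted p = 0.681). The intervals bound what these libraries could have missed: -0.29 to 0.51 for WRKY40, -0.07 to 0.56 for WRKY33 and -0.13 to 0.60 for WRKY53. WRKY22 (AT4G01250) was the single member whose ranges did not overlap, at 6.58, 6.39 and 7.26 FPKM in Col-0 and 8.4, 7.9 and 7.97 FPKM in nrpd1-3. Its log2 fold change was 0.23 (95% interval -0.06 to 0.52), and 10.1% of all tested genes had every nrpd1-3 library above Col-0.

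A direct test of nrpe1-11 against nrpd1-3 called 12 members lower and 1 higher, where 8.52% of all tested genes were called lower and 6.19% higher. This comparison uses the same nrpe1-11 libraries as the one against Col-0, so the 2 are not independent. The 12 were WRKY6, WRKY8, WRKY30, WRKY33, WRKY40, WRKY46, WRKY48, WRKY53, WRKY54, WRKY60, WRKY70 and WRKY75, where WRKY8 and WRKY30 again entered the test through the other genotypes. At least 2-fold falls were called for 7 of them, against 3.53% of all tested genes. WRKY40 was -3.01 (SE 0.187, adjusted p = 2.19e-08), WRKY53 -2.17 (SE 0.17, adjusted p = 2.9e-07) and WRKY33 -2.09 (SE 0.147, adjusted p = 9.3e-08) on the log2 scale. WRKY46 was -1.84 (SE 0.243, adjusted p = 6.66e-05) and WRKY75 was -1.24 (SE 0.244, adjusted p = 0.00242). WRKY70 was -0.58 (SE 0.127, adjusted p = 0.00511), and this call held without any 1 of the libraries. WRKY28 was not called here (-0.47, adjusted p = 0.108). WRKY65 was the member that rose, by 0.57 (SE 0.138, adjusted p = 0.0107), a call that was lost without nrpd1-3 replicate 3 (0.50) or nrpe1-11 replicate 3 (0.51). The call of WRKY54 (-0.90, adjusted p = 0.0158) was lost without nrpd1-3 replicate 2 (-0.71), nrpd1-3 replicate 3 (-0.84) or nrpe1-11 replicate 2 (-0.85), and with no filter on low values (adjusted p = 0.0685).

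Related WRKY genes were compared within each library, in 14 pairs for which both genes were tested. For each pair the difference of the log2(FPKM + 1) levels was taken per library, and the 3 nrpe1-11 differences were set against the 3 from Col-0 by a two-sided exact permutation test, whose smallest possible p is 0.1. In 9 of the 14 pairs the differences did not overlap between genotypes (exact p = 0.1, adjusted over the 14 pairs 0.156), so that none could pass 0.05. Single genes often did not overlap between these genotypes either (10.7% of all tested genes below and 28.7% above), and no such share was computed for other gene pairs, so the 9 pairs are a description only. WRKY18 was lower than WRKY40 in Col-0 by a mean of -0.69 and higher in nrpe1-11 by 1.93, an unequal change of 2.62. WRKY60 against WRKY40 moved from -0.57 to 1.52, and WRKY26 against WRKY33 from -1.02 to 1.31. WRKY25 against WRKY33 moved from -1.34 to 0.33. In each of these 4 pairs the order of the pair's levels in Col-0 was turned round in nrpe1-11.

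The unequal changes of the remaining non-overlapping pairs were smaller. WRKY45 changed by 1.01 more than WRKY75, and WRKY11 by -0.84 relative to WRKY17. WRKY15 relative to WRKY7 was at -0.70, WRKY3 relative to WRKY4 at -0.47, and WRKY54 relative to WRKY70 at -0.26. Pairs whose differences overlapped were WRKY8 and WRKY28 (-0.59, exact p = 0.2), WRKY46 and WRKY53 (0.55, exact p = 0.3), and WRKY50 and WRKY51 (0.50, exact p = 0.4). WRKY22 and WRKY29 (0.15, exact p = 0.6) and WRKY65 and WRKY69 (-0.02, exact p = 1) overlapped as well. With 3 libraries a genotype, overlap does not show that a pair changed alike.

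**Figure D4:**
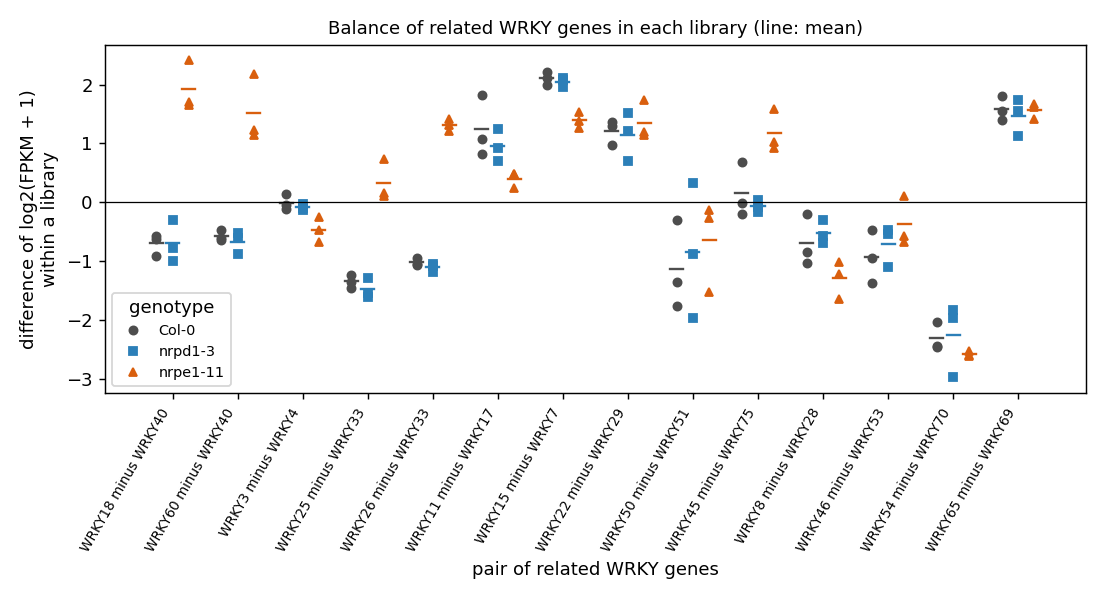
Difference of log2(FPKM + 1) between the members of 14 related WRKY pairs, 1 point per library, for Col-0, nrpd1-3 and nrpe1-11, with lines at the means. Points above 0 mean that the first gene of the pair is higher, and in 9 pairs the 3 points of nrpe1-11 do not overlap those of Col-0.

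WRKY proteins are activated by MAP kinase cascades and calcium-dependent kinases and bound by small VQ proteins. Of 17 such partner genes, 5 fell in nrpe1-11 against Col-0 and 0 rose. The list of partners was assembled with earlier results of these data known, so its counts are a description only. Among all tested genes, 7.54% were called lower and 14.2% higher. The partners had a median log2 fold change of -0.09, beside 0.17 over all tested genes. SIB1, a VQ protein that binds WRKY33, was at 5.54, 5.01 and 4.6 FPKM in Col-0 and at 0.671, 2.04 and 0.327 FPKM in nrpe1-11, without overlap (log2 fold change -1.68, SE 0.261, adjusted p = 0.000333). SIB2, its paralog, was at 5.58, 8.02 and 8.13 FPKM in Col-0 and at 2.55, 4.31 and 3.81 FPKM in nrpe1-11, also without overlap (-0.86, SE 0.188, adjusted p = 0.00465). JAV1, a VQ repressor of jasmonate defence that binds WRKY51, was at 4.91, 5.22 and 4.21 FPKM in Col-0 and at 2.08, 1.9 and 1.48 FPKM in nrpe1-11 (-1.04, SE 0.227, adjusted p = 0.00469). MPK3, a MAP kinase that phosphorylates WRKY33, was at 33.4, 31.5 and 34.1 FPKM in Col-0 and at 23, 26.9 and 24.7 FPKM in nrpe1-11. MPK3 fell by 0.40 (SE 0.103, adjusted p = 0.0133), a call that was lost without nrpe1-11 replicate 1 (-0.34, adjusted p = 0.0593). MPK6, its partner kinase, was not called (0.31, 95% interval 0.03 to 0.58, adjusted p = 0.101). The last of the 5 was the MAP kinase kinase gene MKK1 (-0.55, adjusted p = 0.0156), named after its value was seen.

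Of 19 genes named in the literature as WRKY targets, 16 were tested. The list of targets was also assembled with earlier results of these data known. In nrpe1-11 against Col-0, 13 of the 16 fell, 1 rose and 2 were not called. Among all tested genes, 7.54% were called lower and 14.2% higher. The median log2 fold change of the 16 was -1.52, beside 0.17 over all tested genes. Of these 16, 4 (JAZ5, JAZ8, CYP82C2 and FRK1) were under 1 FPKM in every nrpe1-11 library and entered the test through the other genotypes, so the count supports nothing about the list. The 4 with the smallest adjusted p include 3 camalexin genes, a pathway that WRKY33 is known to activate. Whether the level of WRKY33 bears on their levels in these libraries was not tested. CYP71A13 was at 37.6, 27.5 and 35.3 FPKM in Col-0 and at 1.16, 1.26 and 1.23 FPKM in nrpe1-11 (log2 fold change -3.94, SE 0.129, adjusted p = 1.87e-11). CYP71A12 was at 52.2, 46.2 and 58.2 FPKM in Col-0 and at 3.17, 3.91 and 4.36 FPKM in nrpe1-11 (-3.47, SE 0.123, adjusted p = 4.32e-11). These paralogs are near-identical in parts, so reads could be split between them. PAD3, the last enzyme of camalexin synthesis, was at 49.7, 40.6 and 50.4 FPKM in Col-0 and at 7.2, 4.43 and 5.39 FPKM in nrpe1-11 (-2.86, SE 0.141, adjusted p = 2.07e-09). FRK1, a receptor kinase gene induced by flagellin, was at 21, 15.4 and 20.9 FPKM in Col-0 and at 0.503, 0.639 and 0 FPKM in nrpe1-11 (adjusted p = 1.56e-09). No fold is given for FRK1 because of the value at 0. All 4 were lower in every nrpe1-11 library, without overlap.

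PHO1, which exports phosphate to the shoot and is repressed by WRKY6, was the target that rose. Whether the level of WRKY6 bears on this rise was not tested. PHO1 was at 23.1, 19.8 and 22.8 FPKM in Col-0, at 26.5, 26.1 and 25.8 FPKM in nrpd1-3, and at 36.5, 36 and 35.3 FPKM in nrpe1-11. The 3 genotypes did not overlap, but nrpd1-3 against Col-0 was not called (0.25, adjusted p = 0.681). Every nrpe1-11 library was above Col-0 for 28.7% of all tested genes, and every nrpd1-3 library for 10.1%. Its log2 fold change in nrpe1-11 against Col-0 was 0.69 (SE 0.0984, adjusted p = 0.00014). EDS1, an immune regulator, and PHT1;1, a phosphate transporter activated by WRKY45 and WRKY75, were not called (0.00 and 0.10, adjusted p = 0.984 and 0.592). In nrpd1-3 against Col-0, 0 of these 16 targets and 0 of the 17 partners were called, where 0% of all tested genes were called. Against nrpd1-3, nrpe1-11 had 13 targets lower and 1 higher, and 5 partners lower. In that comparison 8.52% of all tested genes were called lower and 6.19% higher.

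Members with and without a W-box match both included genes that fell and genes that rose. Of 14 tested members with a match upstream, 5 fell and 1 rose in nrpe1-11 against Col-0. Of 24 without a match, 8 fell and 5 rose, beside 7.54% and 14.2% of all tested genes. The median log2 fold change was -0.19 with a match and -0.04 without, and the difference was not tested. WRKY40 and WRKY46, which are among the steepest falls, had 0 matches to TTGACC or TTGACT. Both of their windows do hold the core TTGAC on the other strand, followed by A, a form that was not searched.

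The 6 untested members were low in all libraries. The highest value in any library was 1.49 FPKM for WRKY31, 1.01 for WRKY55, 0.985 for WRKY41, 0.757 for WRKY38, 0.706 for WRKY74 and 0.38 for WRKY62. WRKY38, WRKY41, WRKY55 and WRKY62 belong to group III, so the 5 group III members that were tested are not the whole group. Of the 28 genes that the annotation names as WRKY genes outside the list, 12 were tested. In nrpe1-11 against Col-0, 0 of the 12 were called lower and 2 higher, beside 7.54% and 14.2% of all tested genes. The 2 were WRKY27 (log2 fold change 0.76, adjusted p = 0.0146) and WRKY36 (0.66, adjusted p = 0.0422), named after their values were seen. The 28 genes were not assigned to groups here, so the counts by group cover the listed genes only.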

How the data were processed

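The authors deposited FPKM values in 1 table of 9 libraries. Per the submitters' processing notes, StringTie 2.1.7, HISAT2 2.2.1 and fastp 0.23.2 were used with the TAIR10 build, and their order, settings, strand use and read numbers are not given in the sources used here. The table held 37929 lines for 37898 genes. A gene listed on several lines was kept as the line above 0 in every library. Columns were assigned by sample name, with 0 columns of other samples.

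Genes at 1 FPKM or more in at least 3 of 9 libraries (18212) were tested as log2(FPKM + 1), with a pseudocount of 1, in limma 3.58.1 (R 4.3.3). The trended empirical Bayes fit used all 9 libraries with 1 mean per genotype (14.8 degrees of freedom), and p-values were adjusted over all tested genes by the method of Benjamini and Hochberg. The procedure was tested on simulated data. Related pairs were compared by exact permutation tests (scipy 1.17.1). Library depths were inferred from steps between low FPKM values, and the precision of low genes is limited by it.

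WRKY groups, partners, targets, related pairs and marker lists were assembled with earlier results of these data known. Every tested member could be named, called members are given with values in each library, and up to 4 called genes per direction are named from the partner and target lists. Promoter and coding sequences, coordinates and overlaps come from the RefSeq TAIR10.1 genome and annotation, in which all 44 listed WRKY genes were found. Alternatives changed the pseudocount, the filter, the scaling, the replicate block, the libraries in the fit, the empirical Bayes step and the fold threshold, or left out 1 library.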

Additional observations from a re-analysis of the deposited data

How the results depend on the processing

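No called member changed direction under any alternative run. In nrpe1-11 against Col-0, the 13 lower calls became 7 with a mean FPKM of at least 5 (fewer genes tested) and 6 with a 2-fold minimum, and 10 to 13 when each library was left out in turn. The 6 higher calls became 1 under median-ratio rescaling and 0 with a 2-fold minimum, and 2 to 6 when each library was left out (3 without Col-0 replicate 2, 3 without nrpe1-11 replicate 2 and 2 without nrpe1-11 replicate 3). In nrpe1-11 against nrpd1-3, the 12 lower calls became 7 with a mean FPKM of at least 5 and 7 with a 2-fold minimum, and 11 to 13 with a library left out. The 1 higher call became 4 under quantile normalization, 4 after rescaling to the protein-coding sum, 0 with a 2-fold minimum, and 0 to 2 with a library left out. In nrpd1-3 against Col-0 the count was 0 throughout. The 5 partner calls became 3 with the mean filter, 2 with a 2-fold minimum and 4 to 6 with a library left out, and the 14 target calls became 9 with the mean filter and 14 with any library left out. The median log2 fold change of the members, -0.14 in nrpe1-11 against Col-0, was -0.02 with the mean filter, -0.28 under median-ratio rescaling and -0.19 to -0.08 with a library left out. Against nrpd1-3 it was -0.28, with -0.12 under the mean filter and -0.31 to -0.17 with a library left out. The cause of the changes under rescaling was not tested. Over all genes, 65.3% of the called genes were higher in nrpe1-11 than in Col-0, against 35.3% after median-ratio rescaling, 46.7% after quantile normalization and 53.4% without Col-0 replicate 2. The median over all genes was 0.17 and 0.02 after median-ratio rescaling. Same-numbered libraries deviated with correlations of -0.072 to 0.146. These values show no pairing by number, but with 3 libraries a genotype they cannot settle it, and the labels state none. With the replicate block, 13 members were lower and 6 higher against Col-0, 12 lower and 1 higher against nrpd1-3, and 6 partners and 14 targets were called. The mean filter gave no value for members under 5 FPKM. For genes under about 1 FPKM, depth limits what could be seen.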
